A study of Mus musculus with 8 samples.

Results

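A set of 10 nuclear genes that transcribe, copy and maintain the mitochondrial genome were followed in mouse hearts lacking Elmsan1 in cardiomyocytes. The genes were Tfam, Tfb1m, Tfb2m, Polrmt, Polg, Lrpprc, Slirp, Ssbp1, Gabpa and Nrf1. They were listed by name for their known roles, with earlier results of these hearts already known, and their identifiers were found by symbol in GENCODE M21. All 10 were among the 45706 gene identifiers measured, and all 10 passed the filter on low counts that left 15289 genes for testing.

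RNA sequencing was done on whole hearts of 8-week-old male mice of 3 genotypes, 8 libraries in all. The conditional knockout (cKO, n = 4) carried Elmsan1 fl/fl and aMHC-Cre+/-, in which the promoter of a cardiac myosin gene drives Cre recombinase in cardiomyocytes. The floxed controls (n = 2) were Elmsan1 fl/fl without Cre, and the Cre controls (n = 2) were aMHC-Cre+/- without floxed alleles. The deleted gene encodes a scaffold of a histone deacetylase complex and has Mideas as a second name. The comparisons ask which transcripts differ in the heart after its loss. Whole heart also holds cells in which the promoter is not active, and in such bulk samples fewer cells of a type and less RNA per cell cannot be told apart.

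Mitochondrial DNA is transcribed by the RNA polymerase Polrmt, which needs Tfam to bend the promoter DNA and Tfb2m to open it. Polg copies the genome while Ssbp1 coats its single strands, and the complex of Lrpprc and Slirp holds the messengers stable once they are made. Gabpa and Nrf1 are nuclear transcription factors known to bind the promoters of many of these genes. Nrf1 here is nuclear respiratory factor 1, a gene distinct from Nfe2l1 and Nfe2l2.

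The short stretches below show where the core letters of the Nrf1 and Gabpa motifs occur in the promoters of these genes, since both factors were measured in the same hearts. RefSeq promoter windows (GRCm38.p6) of 300 bases, from 250 before to 50 after the start of transcription, were found for all 10 genes, with 2 windows for Nrf1. Both strands were searched for the Nrf1 core GCGCATGC, the looser GCGCANGC, which includes every match of the first, and the Gabpa core CCGGAAG. Each line reads 5′ to 3′ on the strand that carries the motif, with the motif in capitals.
Tfb2m, Nrf1 core, chr1:179546246-179546273, plus strand: attacgaatgGCGCATGCgaacgaccta
Polrmt, Nrf1 core, chr10:79746697-79746724, minus strand: gagtatttctGCGCATGCtctcttgccg
Polrmt, Gabpa core, chr10:79746608-79746634, plus strand: tctgcgactgCCGGAAGcgctcttagg
Tfam, Gabpa core, chr10:71238075-71238101, minus strand: ctgccgcggaCCGGAAGtccgggcttc
Gabpa, Gabpa core, chr16:84835021-84835047, minus strand: gctgagggacCCGGAAGcacttaccct
Slirp, Gabpa core, chr12:87443740-87443766, minus strand: aggatgctttCCGGAAGcttttccgct
Slirp, Gabpa core, chr12:87443838-87443864, plus strand: acagtttggcCCGGAAGcagaactcga
Slirp, Gabpa core, chr12:87443875-87443901, minus strand: agtcgtgaccCCGGAAGaacctgccag
Polg, Gabpa core, chr7:79466295-79466321, minus strand: aggacctcacCCGGAAGtccctctgca
Ssbp1, Gabpa core, chr6:40471411-40471437, plus strand: gctccgtgcgCCGGAAGcgagccgctg

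The Nrf1 core lay in the windows of 2 of the 10 genes, Tfb2m and Polrmt, and the looser form in the same 2. Of all 32851 mouse windows of this length, 2.71% held the core and 9.95% the looser form. The Gabpa core lay in the windows of 6 genes, with 3 matches in Slirp, against 8.86% of all windows. The core began 47 bases before the start site in Tfam, 93 before it in Gabpa, 43 before it in Polrmt, 38 before it in Polg and 47 before it in Ssbp1. By the GENCODE M21 annotation both Polrmt sites lie in no annotated gene, while the sites of Tfb2m, Tfam, Gabpa, Polg and Ssbp1 overlap an untranslated exon region of some model of the same gene. The site of Gabpa also overlaps an exon of Atp5j on the opposite strand. All 3 Slirp sites overlap exons of Alkbh1 on the opposite strand, and the one nearest the start also overlaps Slirp itself. Windows of Tfb1m, Lrpprc and Nrf1 held none of these letters. A match is a description of the letters and not a bound site.

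The authors deposited estimated counts per gene, which are given below as CPM (library-scaled counts). Libraries totalled 17509564 to 25833259 estimated counts. Mitochondrially encoded genes gave 22.1%, 29.3%, 22.4% and 22.6% of the counts in cKO replicates 1 to 4, and between 25.5% and 29.1% in a control library. Replicates 1, 3 and 4 of the cKO group were thus below every control, and replicate 2 was not. This difference was not tested. Elmsan1 itself read 15.2, 15.5, 15.3 and 12.0 CPM in the cKO hearts, 27.6 and 25.6 in the floxed and 28.6 and 25.3 in the Cre hearts, so that every cKO heart was below every control. By log2 fold change the gene fell by 0.89 (SE 0.11, 1.85-fold), with an adjusted p of 8.94e-05 in edgeR's quasi-likelihood test after Benjamini-Hochberg adjustment over all tested genes. Which exons the deletion removes is not given in the labels. The labels list each heart as a replicate, so p-values set the difference between groups against the spread between hearts.

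Of the 10 genes 5 fell in cKO against the mean of both control groups, 1 rose and 4 were not called at an adjusted p of 0.05. Lrpprc, Tfb2m, Tfb1m, Tfam and Gabpa were the 5 lower, and Slirp was the 1 higher. Polrmt, Polg, Ssbp1 and Nrf1 were not called. In the same contrast 52.1% of all tested genes were called, 26.5% lower and 25.6% higher, so calls were common in these hearts. The members' share called in either direction was not far from the background, while their share lower (5 of 10) was above 26.5%. This difference in direction was not tested. The 10 genes had a median log2 fold change of -0.38, and all tested genes one of 0.04.

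**Figure D1:**
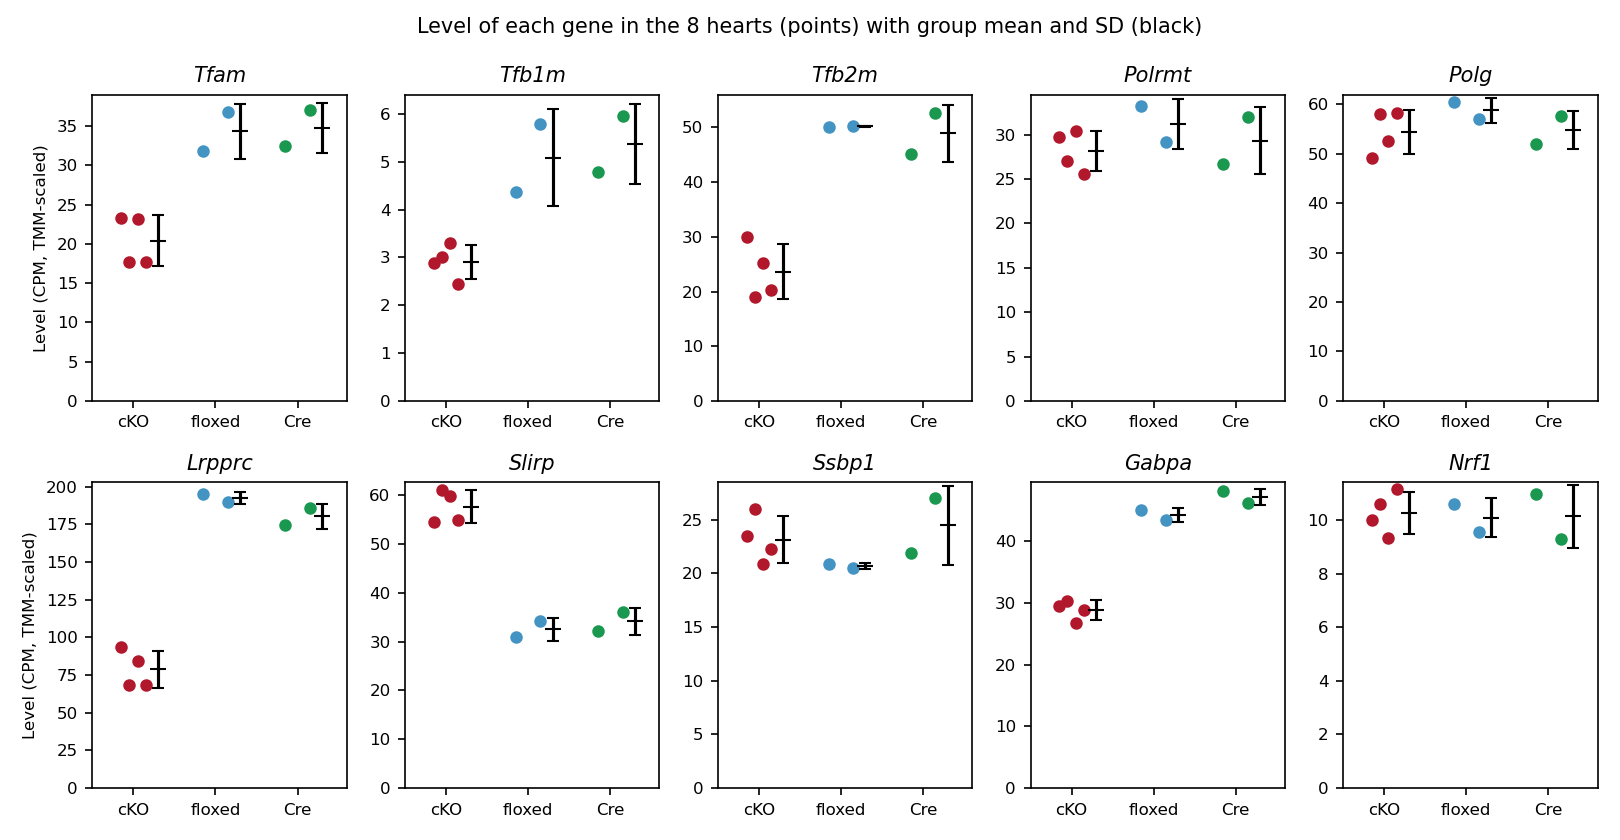
CPM of each of the 10 genes (vertical axes, each starting at 0) in the 4 cKO, 2 floxed and 2 Cre hearts (points), with group mean and SD in black. The cKO points lie apart from all control points for Tfam, Tfb1m, Tfb2m, Lrpprc, Slirp and Gabpa, and among them for Polrmt, Polg, Ssbp1 and Nrf1.

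Among the nuclear regulators, Gabpa fell and Nrf1 was not called. Gabpa (ENSMUSG00000008976, GRCm38 chromosome 16, 84834925 to 84863779, plus strand) encodes the DNA-binding subunit of the GA-binding protein. Its transcript was at 29.6, 30.3, 26.7 and 28.9 CPM in cKO hearts, at 45.1 and 43.5 in floxed hearts and at 48.1 and 46.2 in Cre hearts. The groups did not overlap, and the highest cKO heart lay well below the lowest control. The means were 28.9 ± 1.56 and 45.7 ± 1.95 CPM (SD, n = 4 each), a 1.58-fold fall (log2 -0.66, SE 0.08; edgeR adjusted p = 7.91e-05). On the opposite strand Atp5j, a subunit of ATP synthase, shares 397 of the 5687 annotated exon bases of Gabpa. Atp5j rose in the same hearts (log2 0.45, SE 0.08, edgeR adjusted p = 0.00112). That call was lost with an offset for length and GC of the longest transcript (log2 0.03). With the shortest complete coding transcript the call was kept (log2 0.31, edgeR adjusted p = 0.00911). The part of shared reads in the Gabpa value was not tested.

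Nrf1 (ENSMUSG00000058440, chromosome 6, 30047988 to 30153458, plus strand) encodes a factor that binds the GC-rich core shown above. Its 4 cKO hearts read 9.99, 10.6, 9.33 and 11.2 CPM, the floxed hearts 10.6 and 9.58, and the Cre hearts 11.0 and 9.32. The cKO and control ranges were almost the same. The difference was a log2 fold change of 0.02 (SE 0.11; edgeR adjusted p = 0.893), smaller than the spread between hearts of 1 group.

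Of the polymerase and its partners, Tfam, Tfb2m and Tfb1m fell, whereas Polrmt was called lower only after correction for length and GC content of the transcript. The difference between the fold changes of Polrmt and these factors was not tested. Polrmt (ENSMUSG00000020329, chromosome 10, 79736123 to 79746581, minus strand), the mitochondrial RNA polymerase, read 29.7, 27.0, 30.4 and 25.5 CPM in cKO hearts. The floxed hearts had 33.2 and 29.2 CPM of it, and the Cre hearts 26.7 and 32.0. The groups overlapped, with cKO replicates 1 and 3 above floxed replicate 2 and Cre replicate 1. At 28.1 ± 2.30 against 30.3 ± 2.91 CPM (SD, n = 4 each) it missed the threshold (log2 -0.10, SE 0.10; edgeR adjusted p = 0.406).

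Tfam (ENSMUSG00000003923, chromosome 10, 71225464 to 71238280, minus strand) packages mitochondrial DNA and bends its promoters. Hearts of the cKO group had 23.3, 17.6, 23.2 and 17.6 CPM, the floxed hearts 31.9 and 36.7, and the Cre hearts 32.5 and 37.0. Every cKO heart was below every control, and within the knockout replicates 1 and 3 lay above replicates 2 and 4. Tfam fell 1.69-fold, with means of 34.5 ± 2.72 CPM in controls and 20.4 ± 3.22 in cKO (SD, n = 4 each; log2 -0.76, SE 0.12; edgeR adjusted p = 0.000421).

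Tfb2m (ENSMUSG00000026492, chromosome 1, 179528055 to 179546267, minus strand), the factor that melts the promoter, fell together with its paralog Tfb1m, and the ratio of the pair overlapped between cKO and controls. It stood at 29.9, 19.0, 25.2 and 20.2 CPM in cKO hearts, at 50.1 and 50.3 in the floxed pair and at 45.2 and 52.6 in the Cre pair. No cKO heart came near the controls, and replicates 1 and 3 were again the higher cKO values. The mean fell from 49.6 ± 3.11 to 23.6 ± 5.01 CPM (SD, n = 4 each), 2.10-fold (log2 -1.07, SE 0.14; edgeR adjusted p = 0.000121).

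Tfb1m (ENSMUSG00000036983, chromosome 17, 3519256 to 3557781, minus strand) encodes the methyltransferase of the small mitochondrial ribosomal RNA. It was the least counted of the 10, with 55 to 77 estimated counts in a cKO library and 102 to 126 in a control library. Levels were 2.89, 3.01, 3.30 and 2.44 CPM in cKO hearts, against 4.37 and 5.80 in floxed hearts and 4.78 and 5.96 in Cre hearts. The groups did not overlap, although the controls spread more widely relative to their mean than those of Tfam. Tfb1m fell 1.79-fold (log2 -0.84, SE 0.18; edgeR adjusted p = 0.00220). The call against floxed alone was lost without floxed replicate 2 (log2 -0.59, edgeR adjusted p = 0.144), and that against Cre alone without Cre replicate 2 (log2 -0.75, edgeR adjusted p = 0.0660).

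Neither replication protein was called. Polg (ENSMUSG00000039176, chromosome 7, 79446231 to 79466362, minus strand), the catalytic subunit of the mitochondrial DNA polymerase, had 49.1, 57.9, 52.5 and 58.2 CPM in cKO hearts. Floxed hearts had 60.5 and 57.0 CPM, and Cre hearts 52.0 and 57.5. The lowest heart was a cKO heart and the highest a floxed one, with the rest mixed (log2 -0.06, SE 0.09; edgeR adjusted p = 0.598).

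Ssbp1 (ENSMUSG00000029911, chromosome 6, 40471352 to 40484700, plus strand), the single-stranded DNA binding protein, read 23.5, 26.0, 20.9 and 22.2 CPM in cKO hearts. Floxed hearts had 20.9 and 20.5 CPM, and Cre hearts 21.9 and 27.1. The highest value came from a Cre heart and the lowest from a floxed heart. The log2 fold change was 0.04 (SE 0.10; edgeR adjusted p = 0.759).

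The 2 partners of the messenger-stabilising complex moved in opposite directions. Lrpprc (ENSMUSG00000024120, chromosome 17, 84705247 to 84790789, minus strand), the large pentatricopeptide protein of the complex, had the lowest fitted log2 fold change of the 10 genes. It stood at 93.5, 68.6, 84.1 and 68.5 CPM in cKO hearts, whereas the floxed pair had 195 and 189.8 CPM and the Cre pair 175 and 186. The controls lay close together, and the cKO hearts were far below them with replicates 1 and 3 the higher. The mean went from 186 ± 8.80 to 78.7 ± 12.3 CPM (SD, n = 4 each), a 2.37-fold fall (log2 -1.24, SE 0.11; edgeR adjusted p = 2.52e-05).

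Slirp (ENSMUSG00000021040, chromosome 12, 87443896 to 87452206, plus strand), the small RNA-binding partner, had 54.4, 61.2, 59.9 and 55.0 CPM in cKO hearts. The floxed hearts had 30.8 and 34.2 CPM of it and the Cre hearts 32.2 and 36.1. Every cKO heart was above every control. The rise was 1.73-fold, with means of 33.3 ± 2.31 CPM in controls and 57.6 ± 3.41 in cKO (SD, n = 4 each; log2 0.79, SE 0.09; edgeR adjusted p = 4.93e-05). The gene lies 3225015 bp from Elmsan1 on the same chromosome. Of the 3104 annotated exon bases of Slirp, 2914 also lie in exons of Snw1, a splicing factor gene on the opposite strand, and 122 in exons of Alkbh1. Snw1 fell in the same hearts (log2 -0.69, SE 0.13; edgeR adjusted p = 0.00129). The strand setting of the counting is not given, so how reads were shared between Slirp and Snw1 was not tested.

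The calls were the same against each control group alone. Against floxed hearts 5 of the 10 genes were lower and 1 higher, where 42.9% of all tested genes were called (23.1% lower, 19.8% higher). Against Cre hearts the counts were also 5 and 1, with 42.4% of all genes called (22.8% lower, 19.6% higher). Lrpprc had log2 fold changes of -1.29 and -1.20 against floxed and Cre, Tfb2m -1.09 and -1.05, Tfb1m -0.80 and -0.88, Tfam -0.75 and -0.77, Gabpa -0.62 and -0.71, and Slirp 0.83 and 0.76. These 2 comparisons share the cKO hearts. In Cre against floxed none of the 10 was called (edgeR adjusted p = 1 for each), and 0.0981% of all genes were (0.0916% lower, 0.00654% higher). In that contrast the widest difference was that of Ssbp1 (log2 0.24, SE 0.15), which was also the gene with the lowest unadjusted p at 0.131. By CPM, 6 of the 10 genes had no overlap between cKO and control hearts, against 49.3% of all tested genes. In 5 all cKO hearts were below all controls (25.9% of all genes), and in 1 they were above (23.4%).

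Levels between genes were compared per kilobase of the longest annotated transcript. In controls Lrpprc stood first at 42.4 ± 2.00 CPM per kb (SD, n = 4), then Tfb2m at 20.2 ± 1.27 and Slirp at 12.3 ± 0.856, each apart from its neighbours in the order. Gabpa (9.17), Tfam (8.28), Polg (7.24) and Polrmt (7.06) followed, with each overlapping the next. Ssbp1 (5.13) stood apart from those above and below it, and Nrf1 (2.5) and Tfb1m (2.16) closed the order with overlapping values. In cKO hearts Slirp came first at 21.3 ± 1.26 CPM per kb, overlapping Lrpprc at 17.9 ± 2.81. Tfb2m (9.63) came next, apart from both its neighbours. Polg (6.95), Polrmt (6.56), Gabpa (5.79), Ssbp1 (5.26) and Tfam (4.90) then formed a chain of overlapping neighbours, so that Tfam and Gabpa sat below Polg and Polrmt rather than above. Nrf1 (2.54) and Tfb1m (1.20) were last. The order depends on the transcript model: per kilobase of the shortest complete coding transcript, Tfam (44.3), Lrpprc (42.4) and Slirp (41.6) overlapped at the top in controls, and cKO hearts had Slirp (71.9) and Tfam (26.2) first.

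Ratios between partner or paralog transcripts within each heart do not depend on library scaling. The log2 ratio of Slirp to Lrpprc counts was -0.78, -0.17, -0.49 and -0.32 in the cKO hearts. It was -2.66 and -2.47 in the floxed pair and -2.44 and -2.36 in the Cre pair. All 4 cKO hearts were above all controls, by 2.05 on the log2 scale between means. This is the smallest p that the 70 splits of 4 against 4 hearts can give (exact two-sided permutation test, p = 0.0286; Benjamini-Hochberg adjusted over the 4 ratios 0.0571), so the adjusted value misses 0.05. The ratio of Gabpb1, the activating partner of Gabpa, to Gabpa also separated the groups. It was -1.52, -1.23, -1.52 and -1.03 in cKO hearts, against -2.14 and -2.26 in floxed hearts and -2.22 and -2.11 in Cre hearts, a difference of 0.86 (exact two-sided permutation test, p = 0.0286, adjusted 0.0571). For Gabpb1 itself the log2 fold change was 0.22 (SE 0.14; edgeR adjusted p = 0.228), not called.

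The Tfb2m to Tfb1m ratio overlapped between groups, at 2.99 ± 0.29 in cKO and 3.25 ± 0.18 in controls (log2, SD, n = 4 each; exact two-sided permutation test, p = 0.229, adjusted 0.305). So did that of Polg2, the accessory subunit of the polymerase, to Polg, at -3.84 ± 0.28 and -4.11 ± 0.38 (exact two-sided permutation test, p = 0.343, adjusted 0.343). Without cKO replicate 1 the adjusted p of the exact permutation test was 0.0381 for Slirp to Lrpprc, Gabpb1 to Gabpa and Tfb2m to Tfb1m. Leaving out any other heart gave no adjusted p under 0.05.

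**Figure D2:**
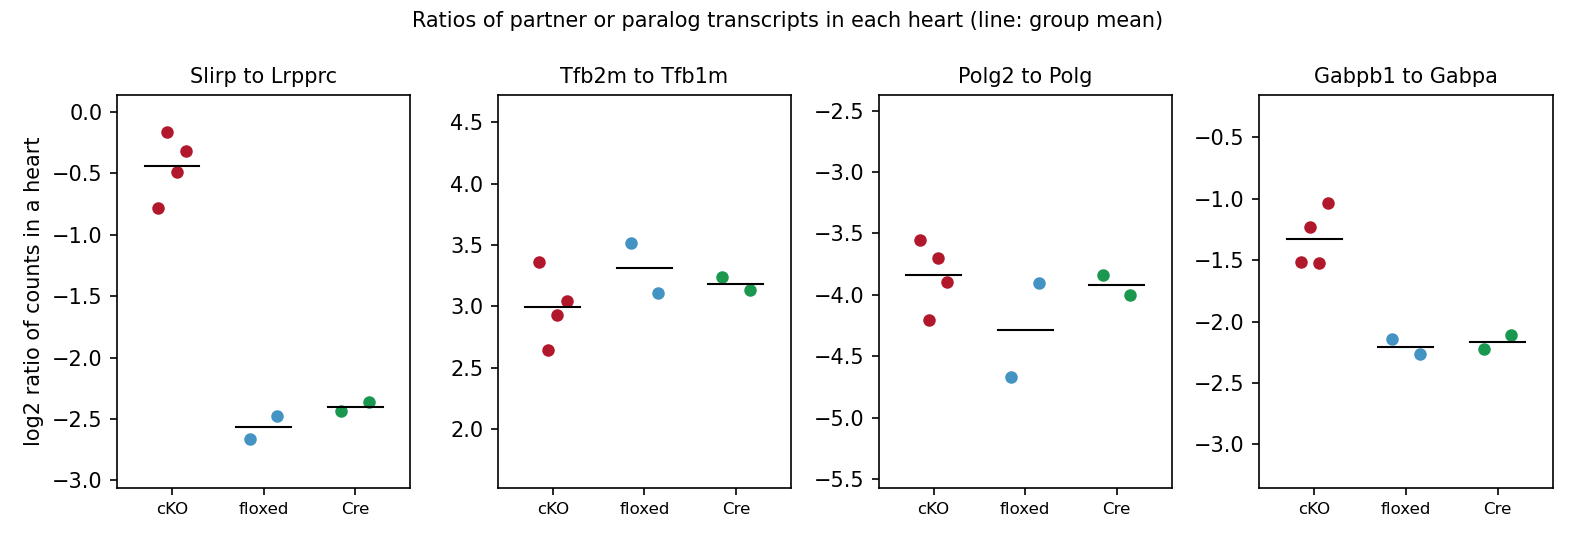
Log2 ratio of estimated counts of 2 genes within each heart (vertical axes, all spanning the same range), for cKO, floxed and Cre hearts (points; lines are group means). Slirp to Lrpprc and Gabpb1 to Gabpa are higher in all 4 cKO hearts than in all controls, while the other 2 ratios overlap.

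Transcript length and GC content can shift counts between libraries, so each gene was refitted with an offset for both. The offset used either the longest annotated transcript or, chosen after seeing the data, the shortest complete coding transcript. The 5 falls and the rise of Slirp kept their calls under both. Lrpprc moved to -1.03 and -0.91 with the longest and the shortest transcript, Tfb2m to -1.02 and -0.87, Tfb1m to -0.79 and -0.80, Tfam to -0.54 and -0.84, Gabpa to -0.37 and -0.49, and Slirp to 0.89 and 0.72. Polrmt was called lower under both, at -0.36 (edgeR adjusted p = 0.0204) and -0.31 (edgeR adjusted p = 0.0348), which made 6 of the 10 genes lower. Over all 15289 tested genes 3684 were lower and 3200 higher with the longest transcript, and 3743 and 3223 with the shortest. Ssbp1 was called higher with the longest transcript only (log2 0.28, edgeR adjusted p = 0.0368) and stood at 0.00 with the shortest, whose length of 933 bp differs much from the 4398 bp of the longest. Polg stayed uncalled but turned to 0.21 and 0.24 (edgeR adjusted p = 0.112 and 0.0758). Nrf1 was called under neither.

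**Figure D3:**
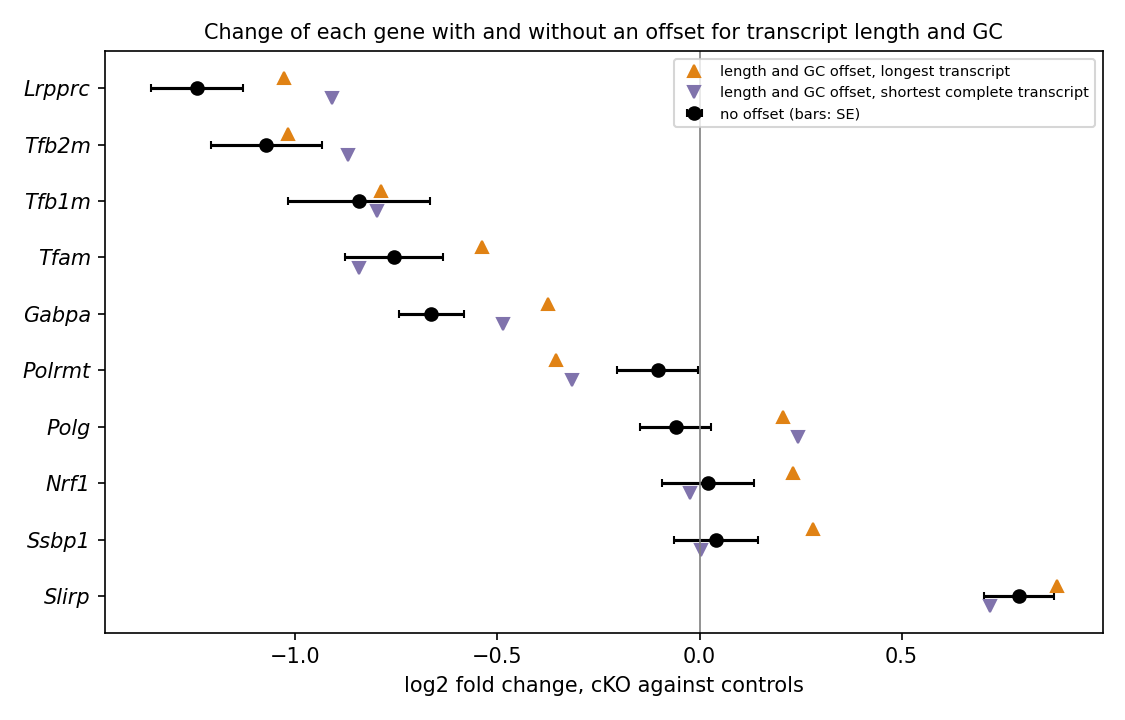
Log2 fold change of each gene in cKO against controls (horizontal axis), without correction (black, bars are SE) and with one for the length and GC content of the transcript (triangles, 2 transcript models). The 5 lower genes and Slirp stay on their side of 0, while Polrmt moves from -0.10 to -0.36 and -0.31.

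Other genes of mitochondrial genome expression were read from lists of related genes, whose counts stand beside 52.1% of all tested genes called, 26.5% lower and 25.6% higher, and a median of 0.04 over all genes. Among mitochondrial RNA processing and turnover genes 12 of 22 fell and 1 rose, and their median was -0.39 on the log2 scale. The share called in either direction was close to that of all genes, while the share lower was above 26.5%. This difference in direction was not tested. The falls included Trmt10c, a subunit of the nuclease that frees tRNA 5′ ends (log2 -1.07), Grsf1, an RNA granule protein (-0.99), Pnpt1, the RNA-degrading phosphorylase (-0.96), and Nsun4, an rRNA methyltransferase (-0.51). Grsf1 went from 163 ± 4.94 to 81.8 ± 12.6 CPM (SD, n = 4 each). Elac2, named after its value was seen, was called lower at a log2 of -0.25 (edgeR adjusted p = 0.0346). That call was lost under upper-quartile and library-size scaling, with no filter and with a replicate block. It was also lost without cKO replicate 2 or 4 or any 1 control heart. Lower calls numbered 10 under upper-quartile scaling and 9 with library size alone. Trub2 lost its call under both scalings and without floxed replicate 1, and Supv3l1 with library size alone. The 1 gene that rose was Rpusd3 (log2 0.51; edgeR adjusted p = 0.0254), named after its value was seen. That call was lost without cKO replicate 3 (log2 0.42), floxed replicate 2 (0.43) or Cre replicate 1 (0.44), with the block by the titles' replicate numbers, with no filter and against either control group alone.

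Transcription elongation and termination genes were mixed, with 2 lower and 1 higher of 7 and a median of 0.16. Mterf2, a termination factor family member, fell (log2 -0.65), and Mrpl12, a ribosomal protein that also binds Polrmt, rose (0.55). Tefm, the elongation factor, was called at a narrow margin (log2 -0.30, SE 0.11; edgeR adjusted p = 0.0478), and most alternatives ended that call.

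Of 12 replication and repair enzymes 3 fell and 2 rose, with a median of 0.12. Twnk, the replicative helicase, fell (log2 -0.53, SE 0.08) and averaged 18.6 ± 0.675 CPM in cKO and 26.9 ± 1.28 in controls (SD, n = 4 each). Mgme1, an exonuclease of replication ends, and Lig3, the mitochondrial DNA ligase, fell by 0.80 and 0.66 on the log2 scale. Endog, a nuclease of the intermembrane space, rose (log2 0.89) and averaged 79.2 ± 9.99 CPM in cKO and 42.7 ± 2.88 in controls (SD, n = 4 each). Primpol, a primase and polymerase named after its value was seen, was the other gene called higher (log2 0.62; edgeR adjusted p = 0.0330). That call was lost without cKO replicate 2 (log2 0.54), cKO replicate 3 (0.63), floxed replicate 2 (0.51) or Cre replicate 2 (0.44), with a replicate block, and against Cre alone (edgeR adjusted p = 0.208). Polg2 was not called (log2 0.20, SE 0.19). Among the 4 core replication proteins Twnk, Polg, Polg2 and Ssbp1, Twnk was the 1 called.

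Nucleotide supply genes had 2 falls and 2 rises among 8, and a median of -0.02. Rrm2b, the ribonucleotide reductase subunit used outside the cell cycle, fell (log2 -1.37, SE 0.15), with 13.0 ± 3.01 CPM in cKO and 33.6 ± 2.18 in controls (SD, n = 4 each), and Mpv17, an inner membrane protein, fell by 0.64. Tk2, mitochondrial thymidine kinase, rose (log2 0.53), as did Slc25a33, a pyrimidine nucleotide carrier (0.43), whose call was lost without floxed replicate 1 (0.36). Slc25a33 was called against Cre alone (log2 0.59) but not against floxed alone (log2 0.27, edgeR adjusted p = 0.165). The median of this list turned to 0.09 under upper-quartile scaling and 0.11 with library size alone.

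Nucleoid and matrix protease genes included 3 higher and 2 lower of 7, with a median of 0.11. The ClpXP protease split, since Clpx, its unfoldase, fell (log2 -1.08, SE 0.10) and Clpp, its peptidase, rose (0.55). Lonp1, the protease known to degrade Tfam, fell (log2 -0.32, SE 0.09; edgeR adjusted p = 0.0122). That call was lost without floxed replicate 1, with the replicate block and under upper-quartile and library-size scaling. Phb, a prohibitin, rose (0.43), and Phb2, named after its value was seen, was called at a narrow margin (log2 0.25; edgeR adjusted p = 0.0480). The Phb2 call was lost without any 1 heart other than cKO replicate 2 (log2 0.18 to 0.29), with a replicate block and with no filter. With the length and GC offset none of this list was higher under either transcript model, and the medians were -0.13 in both.

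The offset also ended other rises and some falls. Endog (log2 0.16 with the longest transcript), Mrpl12 (0.04 and 0.19 with the longest and shortest) and Slc25a33 (0.13 and 0.31) were then not called, while Endog kept its call with the shortest (0.37). Rpusd3 was called under neither, at -0.10 and 0.01. Twnk, Mgme1, Lig3, Rrm2b, Mpv17, Mterf2, Clpx and the 4 named RNA processing genes stayed lower under both. Other RNA processing falls, named after their values were seen, were lost. With the longest transcript Fastkd3 (log2 -0.29), Lactb2 (-0.18), Fastkd2 (-0.19), Trub2 (-0.31) and Pde12 (-0.15) were not called. Lactb2 (-0.09), Fastkd2 (-0.09) and Pde12 (-0.14) were also not called with the shortest. Hsd17b10 (-0.32, longest) and Rexo2 (-0.61, shortest) were among those that became called lower. Of the 22 RNA processing genes 11 were lower with the longest transcript and 12 with the shortest, against 12 without an offset.

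Other nuclear regulators had 6 falls and no rise among 11, with a median of -0.45, where 52.1% of all tested genes were called and 26.5% were lower. Their share called in either direction was thus close to that of all genes, while the share lower (6 of 11) was above 26.5%. This difference in direction was not tested. Ppargc1a, the coactivator that works with Nrf1 and Gabpa, fell with the smallest p of the list (log2 -1.36, SE 0.11). It averaged 39.4 ± 5.48 CPM in cKO and 101 ± 4.52 in controls (SD, n = 4 each). Hcfc1, a host cell factor, fell by 1.03, Sp1 by 0.83 and Yy1 by 0.57. With the longest-transcript offset 2 of the list were higher, Gabpb1 (log2 0.44) and Gabpb2 (0.27), the latter named after its value was seen.

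Transcripts of the mitochondrial genome itself were called in both directions. Of 13 mitochondrially encoded mRNAs 6 fell and 1 rose, among them mt-Nd5 (log2 -1.14, SE 0.22), mt-Atp8 (-1.43), mt-Nd4l (-1.40) and, higher, mt-Nd3 (0.88). The other 6 were not called. Lower calls numbered 9 with the longest-transcript offset, 7 with the shortest, 8 with DESeq2 and 8 without cKO replicate 2. The fall of mt-Nd6, named after its value was seen, lost its call under upper-quartile scaling and without cKO replicate 3 or Cre replicate 2. Summed over the 13 mRNAs, the cKO hearts held 197422, 292936, 204838 and 202072 CPM and the controls 257183 to 311224. Only cKO replicate 2 was within the control range. Both rRNAs were called higher, mt-Rnr1 by 1.03 (SE 0.16) and mt-Rnr2 by 0.65 (SE 0.24; edgeR adjusted p = 0.0441). The mt-Rnr2 call was lost without any 1 of cKO replicates 2 and 4, both floxed and both Cre hearts, with either offset and with no filter, and mt-Rnr2 was not called against floxed (edgeR adjusted p = 0.123) or Cre alone (edgeR adjusted p = 0.0938). The difference between mRNAs and rRNAs was not tested, and mt-Nd3 was not called with the shortest-transcript offset (log2 0.45).

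**Figure D4:**
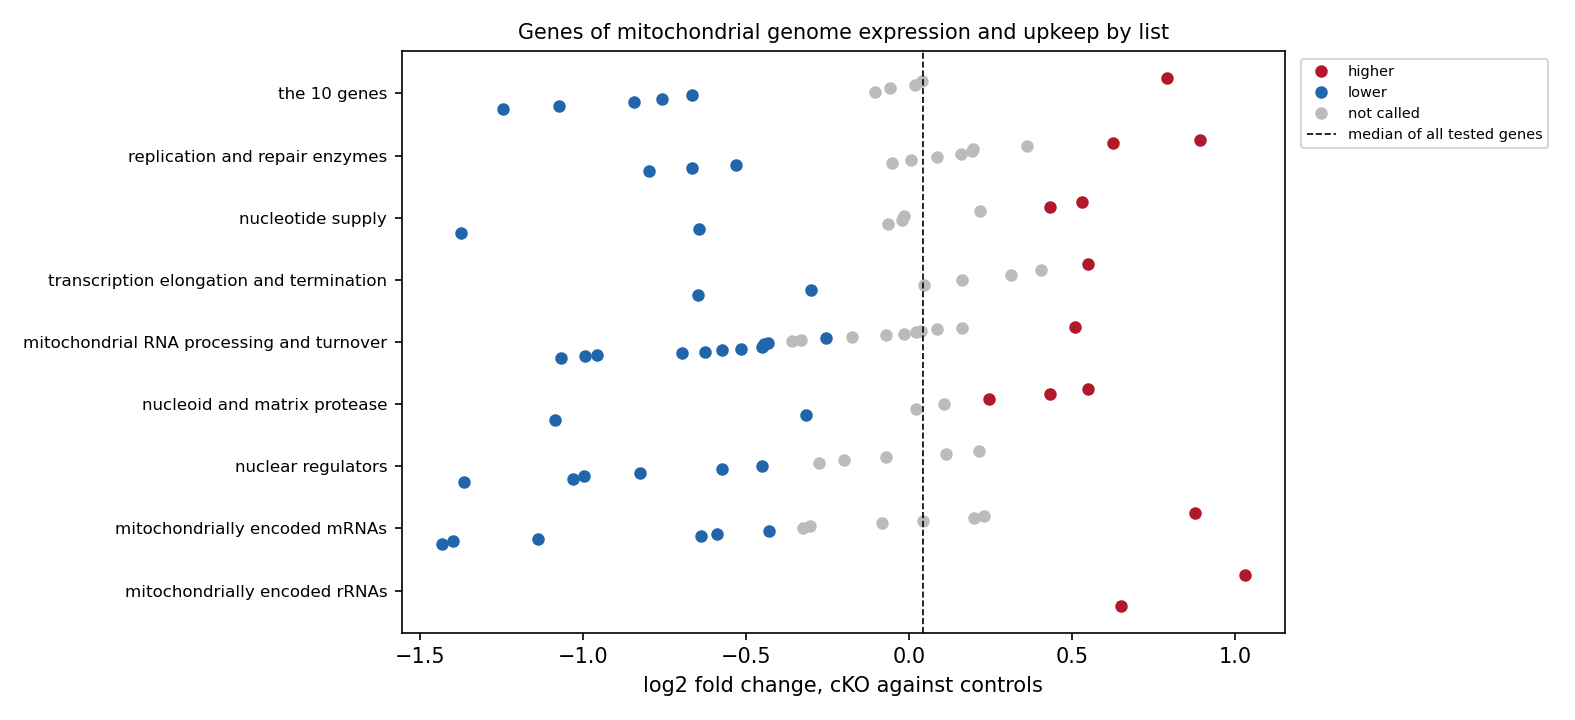
Log2 fold change in cKO against controls (horizontal axis) of the 10 genes and of each list of related genes (vertical position within a list only separates points), coloured by call. The dashed line is the median of all tested genes (0.04). Red points are rare among RNA processing genes and absent among nuclear regulators.

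Levels of cell type markers stood beside these differences, with 52.1% of all tested genes called, 26.5% lower and 25.6% higher. Summed over 8 cardiomyocyte markers the cKO hearts held 44577 to 53900 CPM and the controls 53793 to 57609, with 2 markers higher and 3 lower. The sum of 6 endothelial markers was 823 to 988 in cKO against 645 to 708 CPM, with 4 higher and 1 lower, and that of 6 macrophage markers 140.2 to 179.6 against 95.7 to 116 CPM, with 4 higher. Fibroblast markers summed to 845 to 1103 and 646 to 868 CPM (1 of 6 higher), smooth muscle and pericyte markers to 536 to 928 and 621 to 707 CPM (0 of 6 called), and erythroid markers to 324 to 846 and 301 to 485 CPM (0 of 3 called). No marker was at 0, the lowest being a macrophage marker at a mean of 2.25 CPM over the 8 hearts. Several marker calls were lost under alternatives. Endothelial Cdh5, called higher, lost its call without any 1 heart other than cKO replicate 2, with a replicate block and with no filter. Endothelial Kdr, called lower, lost it under both offsets, with library size alone, with the block by the titles' replicate numbers and without floxed replicate 1. Macrophage Cd68 lost its call under both offsets, and Fcgr1 with a replicate block and without floxed replicate 1 (log2 0.63). Cardiomyocyte Myl2 and Tnni3 lost theirs with the longest-transcript offset. The part of cell composition in the changes of the 10 genes was not tested.

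Genes whose log2 CPM, centred per gene, followed a member most closely over the 8 hearts were found by Euclidean distance among 12151 coding genes. Nearest to Tfam were Uqcrc2, a complex III subunit (distance 0.130), Tgfbr3 (0.136) and Cab39 (0.164). Lrpprc was closest to Nt5dc3 (0.120), Ndufs1, the large iron-sulfur subunit of complex I (0.140), and Snx13 (0.150). For Slirp they were Polr2j, an RNA polymerase II subunit (0.132), Sult5a1 (0.155) and Rps25, a ribosomal protein (0.168). Polrmt had Cox18, an insertase for cytochrome oxidase (0.0968), Ipo4 (0.135) and Eci1 (0.138). These distances describe 8 libraries that share 1 group difference.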

How the data were processed

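Total RNA of 8 whole hearts was sequenced after TRIzol extraction and NEBNext Ultra library preparation, per the labels' protocols. A single table was deposited by the authors, holding unscaled estimated counts per gene, with 45706 identifiers and no column left out. Between 71.95% and 76.34% of values above 0 in a library were whole within 1e-06. The tools in the submitters' processing notes are STAR 2.5.1b and DESeq2, and the builds mm10 and GRCm38. Counting program, annotation and strand setting: not given in the sources used here.

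Counts were rounded, since the tests need counts, and filtered with filterByExpr, which left 15289 genes. Library sizes were scaled by TMM, and all 8 libraries entered 1 fit of 3 group means, with 5 degrees of freedom left over (edgeR 4.0.16, R 4.3.3, robust). The contrast set cKO against the mean of floxed and Cre, with equal weight. Adjusted p-values are from edgeR's quasi-likelihood test, Benjamini-Hochberg adjusted over all tested genes, and SE follows from the test statistic. Positions are from GENCODE M21 (GRCm38). Of the 23 genes listed for RNA processing 22 were matched. Length and GC offsets (mgcv 1.9.3) covered 15216 genes (99.5%). Ratios added 0.5 to each count.

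The 10 genes and the lists were chosen with earlier results of these data known. Named from each list were up to 4 called genes with the smallest p, plus Twnk, Polg2, Tefm, Ppargc1a, Gabpb1 and Lonp1, and the 3 nearest patterns of 4 members. Alternatives were other scalings, DESeq2 1.42.0, limma voom (limma 3.58.1), other filters, the offsets, a replicate block by title or library-name number, a fit without robust dispersion, fits limited to the compared groups, controls pooled into 1 group, and leaving out each library. The procedure was tested on simulated data. Figures were drawn with matplotlib 3.10.9.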

Additional observations from a re-analysis of the deposited data

Results flagged for a closer look

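Among 52 groups of 4 cKO hearts examined for a value far from the others, 2 held one, and chance marks about 1 in 20 such groups. Sp1 in cKO replicate 1 was at 32.0 CPM, with the other 3 cKO hearts at 19.8 to 21.7 CPM, a gap of 0.845 of the whole range. Elmsan1 in cKO replicate 4 was at 12.0 CPM, with the other cKO hearts at 15.2 to 15.5 CPM, a gap of 0.912 of the range. Both hearts remained below every control for the gene concerned.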

How the results depend on the processing

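Of 220 values of the 10 genes in cKO against controls, 1 for each gene under each of 22 alternatives, 217 kept their side of the threshold, and the other 3 were the calls gained with the offsets by Polrmt and Ssbp1. Members called higher numbered 2 with the longest-transcript offset and 1 otherwise, and members called lower 6 with either offset and 5 otherwise. Clpp turned to -0.13 with the longest-transcript offset. Without 1 replicate, genes called ranged from 3600 to 7037 against floxed (3600 and 3624 without floxed replicates 1 and 2, 6559 with all) and from 3929 to 6934 against Cre (3929 without Cre replicate 2, 6484 with all). Cre against floxed had 15 genes by edgeR, 526 at an unadjusted p under 0.05, 62 with DESeq2, 23 with limma voom, 31 with no filter, 32 when only the controls were fitted, and 7 to 18 without 1 replicate (7 without floxed replicate 2, 9 without Cre replicate 1 or 2). The ratio differences ranged without 1 replicate from 1.96 to 2.16 (Slirp to Lrpprc), 0.76 to 0.93 (Gabpb1 to Gabpa) and -0.38 to -0.14 (Tfb2m to Tfb1m). Without cKO replicate 1 they were 2.16, 0.92 and -0.38, and passed the adjusted threshold, which the smallest possible p of the full set cannot unless 3 ratios reach it. The cause of the other shifts was not tested.

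With the length and GC offsets called list members moved from 3 to 0 higher (nucleoid and matrix protease), 1 to 0 (elongation and termination; RNA processing) and 2 to 1 (nucleotide supply; rRNAs) under both. With the shortest transcript the encoded mRNAs moved from 1 to 0 higher. Their lower calls moved from 6 to 9 with the longest transcript and to 7 with the shortest. Library size alone gave 3 higher encoded mRNAs in place of 1. Upper-quartile and library-size scaling raised the median of all genes by 0.11 and 0.12 and the higher share of called genes from 49.1% to 59.3% and 61.5%.

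With a replicate block by the titles' numbers, 3007 genes were higher and 3365 lower in cKO against controls, the members' 1 higher and 5 lower held, and Cre against floxed had 84 calls. In that block cKO replicates 3 and 4 had no control of the same number, so they added nothing to the estimated differences. The floxed libraries are named 2 and 3, unlike their titles. By library name only cKO replicate 4 lacks a control of its number, and it added nothing to the differences in that block. A replicate block by the numbers in the library names, added after seeing the data, gave 3359 higher and 3660 lower genes, the same 1 and 5 members and 24 calls in Cre against floxed, and the call of Tfb1m, cKO against floxed, was lost (log2 -0.63, edgeR adjusted p = 0.0654). Neither numbering paired the hearts by the rule of every correlation above 0.1, since those of same-numbered deviations ran from -0.106 to 0.134 by title and from -0.105 to 0.140 by library name. Depth limits Tfb1m most, at 55 to 126 counts a library.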

Other observations

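The 4 cKO hearts spread in a shared way over several genes, seen after the values were known and given here with no test. Replicates 1 and 3 had the higher levels of Tfam (23.3 and 23.2 CPM against 17.6 in both replicates 2 and 4), of Tfb2m (29.9 and 25.2 against 19.0 and 20.2), of Lrpprc (93.5 and 84.1 against 68.6 and 68.5) and of Polrmt (29.7 and 30.4 against 27.0 and 25.5). Summed levels of both mitochondrial rRNAs ran the other way, at 5939 and 5809 CPM in replicates 1 and 3 and 10514 and 9783 in replicates 2 and 4. All 4 cKO hearts had a higher rRNA sum than the highest control, at 5141 CPM. Taken singly, mt-Rnr1 separated the groups, while mt-Rnr2 overlapped, with cKO replicate 3 at 3409 CPM and Cre replicate 2 at 3522. Erythroid markers summed to 324 and 422 CPM in replicates 1 and 3 and to 782 and 846 in replicates 2 and 4. Nrf1 (9.99 and 9.33 against 10.6 and 11.2 CPM) and Polg (49.1 and 52.5 against 57.9 and 58.2) were also lower in replicates 1 and 3, while Gabpa, Slirp, Ssbp1 and Tfb1m showed neither order. How these values relate was not tested.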
